A study of Mus musculus with 7 samples.

Results

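Binding of the insulator protein CTCF and of Rad21, a subunit of the cohesin complex, was described around 7 genes of cholesterol and bile acid metabolism in female mouse liver: Srebf2, Nr1h4, Nr0b2, Cyp7a1, Cyp8b1, Abcb11 and Slc10a1. The genes were chosen by name, and the sites were all peaks overlapping each gene in the mm9 annotation extended by 50 kb on both sides. These 7 of 21418 protein-coding autosomal genes held 86 of the 68667 CTCF peaks and 92 of the 68656 Rad21 peaks in the deposited lists. Liver nuclei came from 8-week-old female CD-1 mice (Crl:CD1(ICR) stock) with no genetic change or treatment given in the labels, and chromatin was immunoprecipitated with an antibody to CTCF in 4 libraries and to Rad21 in 3 libraries. The libraries of each antibody were pooled before peaks were called, so every value below belongs to 1 pool per factor, has no replicate error and could not be tested between mice. Peak lists hold no sequencing depth and no expression values, so the depth behind a peak is unknown here, and neither the liver identity of the nuclei nor the activity of the genes was tested.

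CTCF binds DNA at a long, directional motif, and cohesin extrudes chromatin loops that tend to stop where motifs of bound CTCF point toward each other. Cohesin is also found without CTCF at promoters and enhancers active in a tissue. The liver makes bile acids from cholesterol, secretes them into bile and takes them up again from portal blood, and a feedback circuit of nuclear receptors holds synthesis back when bile acids accumulate. Srebf2 encodes SREBP2, the transcription factor that switches on cholesterol synthesis and uptake. Nr1h4 encodes FXR, the bile acid receptor, and Nr0b2 encodes SHP, a repressor that FXR induces. Cyp7a1 is the rate-limiting enzyme of the classical bile acid pathway, and Cyp8b1 is the sterol 12-hydroxylase needed for cholic acid. Abcb11 encodes BSEP, the pump that exports bile salts into bile, and Slc10a1 encodes NTCP, the carrier that imports them from blood.

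The sequence just before a transcription start is shown for a start that Rad21 peaks reached without CTCF and for another reached with CTCF. Each sequence is mm9, printed 5′ to 3′ on the coding strand, runs up to the base before the annotated start, and extends as far as the Rad21 peak does, to at most 300 bases. Capitals mark the letters CAAAGTCCA, bound by HNF4A, which were searched on both strands with the other short motifs listed further on.
Nr1h4 internal start (chr10:88969404-88969649, minus strand, Rad21 without CTCF): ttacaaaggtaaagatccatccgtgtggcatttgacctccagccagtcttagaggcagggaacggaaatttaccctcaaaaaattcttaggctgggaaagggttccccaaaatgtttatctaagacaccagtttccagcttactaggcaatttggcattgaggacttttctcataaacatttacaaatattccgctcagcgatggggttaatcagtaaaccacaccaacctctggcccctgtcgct
Cyp8b1 gene start (chr9:121825424-121825577, minus strand, Rad21 with CTCF): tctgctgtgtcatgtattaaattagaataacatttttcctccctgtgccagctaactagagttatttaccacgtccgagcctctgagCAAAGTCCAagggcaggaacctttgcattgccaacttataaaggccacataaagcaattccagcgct
The Cyp8b1 sequence held the HNF4A letters 67 bases before the start. Of 20901 genes searched, 0.263% held CAAAGTCCA in the 154 bases before the start and 3.44% held TGTTTAC, bound by FOXA, in the 300 bases before it. The 300 bases before the Nr1h4 gene start, not printed, held TGTTTAC 103 bases before the start. Those before the Cyp7a1 gene start, also not printed, held it 300 bases before the start. The Nr1h4 internal sequence held none of the 7 short motifs searched. A match is a description of the letters and not a measured binding site.

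CTCF motifs were called with a 20 bp matrix learned from strong CTCF peaks on chromosomes that carry none of the 7 genes, at a score reached by 1.0% of flanking sequence. Some of the motifs of the peaks nearest to a gene on either side are shown with 10 bases around them, since their strands set whether the pair points toward the gene. Capitals mark the motif, and each line is read on the strand of its motif.
Srebf2 upstream motif (chr15:81969842-81969881, plus strand): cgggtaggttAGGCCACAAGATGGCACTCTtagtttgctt
Srebf2 downstream motif (chr15:82067209-82067248, minus strand): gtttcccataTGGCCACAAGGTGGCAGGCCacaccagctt
Cyp7a1 downstream motif (chr4:6152609-6152648, plus strand): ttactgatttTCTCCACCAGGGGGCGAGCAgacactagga
Cyp7a1 upstream motif (chr4:6220314-6220353, minus strand): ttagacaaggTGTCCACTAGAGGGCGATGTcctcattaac
Abcb11 downstream motif (chr2:69043375-69043414, plus strand): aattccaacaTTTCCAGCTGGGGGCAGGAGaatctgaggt
Abcb11 upstream motif (chr2:69266376-69266415, minus strand): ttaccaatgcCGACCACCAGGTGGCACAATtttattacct
Slc10a1 upstream motif (chr12:82083490-82083529, plus strand): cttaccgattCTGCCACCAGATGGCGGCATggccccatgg
Cyp8b1 upstream motif (chr9:121837900-121837939, plus strand): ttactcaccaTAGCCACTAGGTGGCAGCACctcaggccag
The scores of the printed motifs ran from 14.8 bits at the Abcb11 downstream motif to 22.6 bits at the Slc10a1 upstream motif, against a threshold of 14.2 bits.

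**Figure D1:**
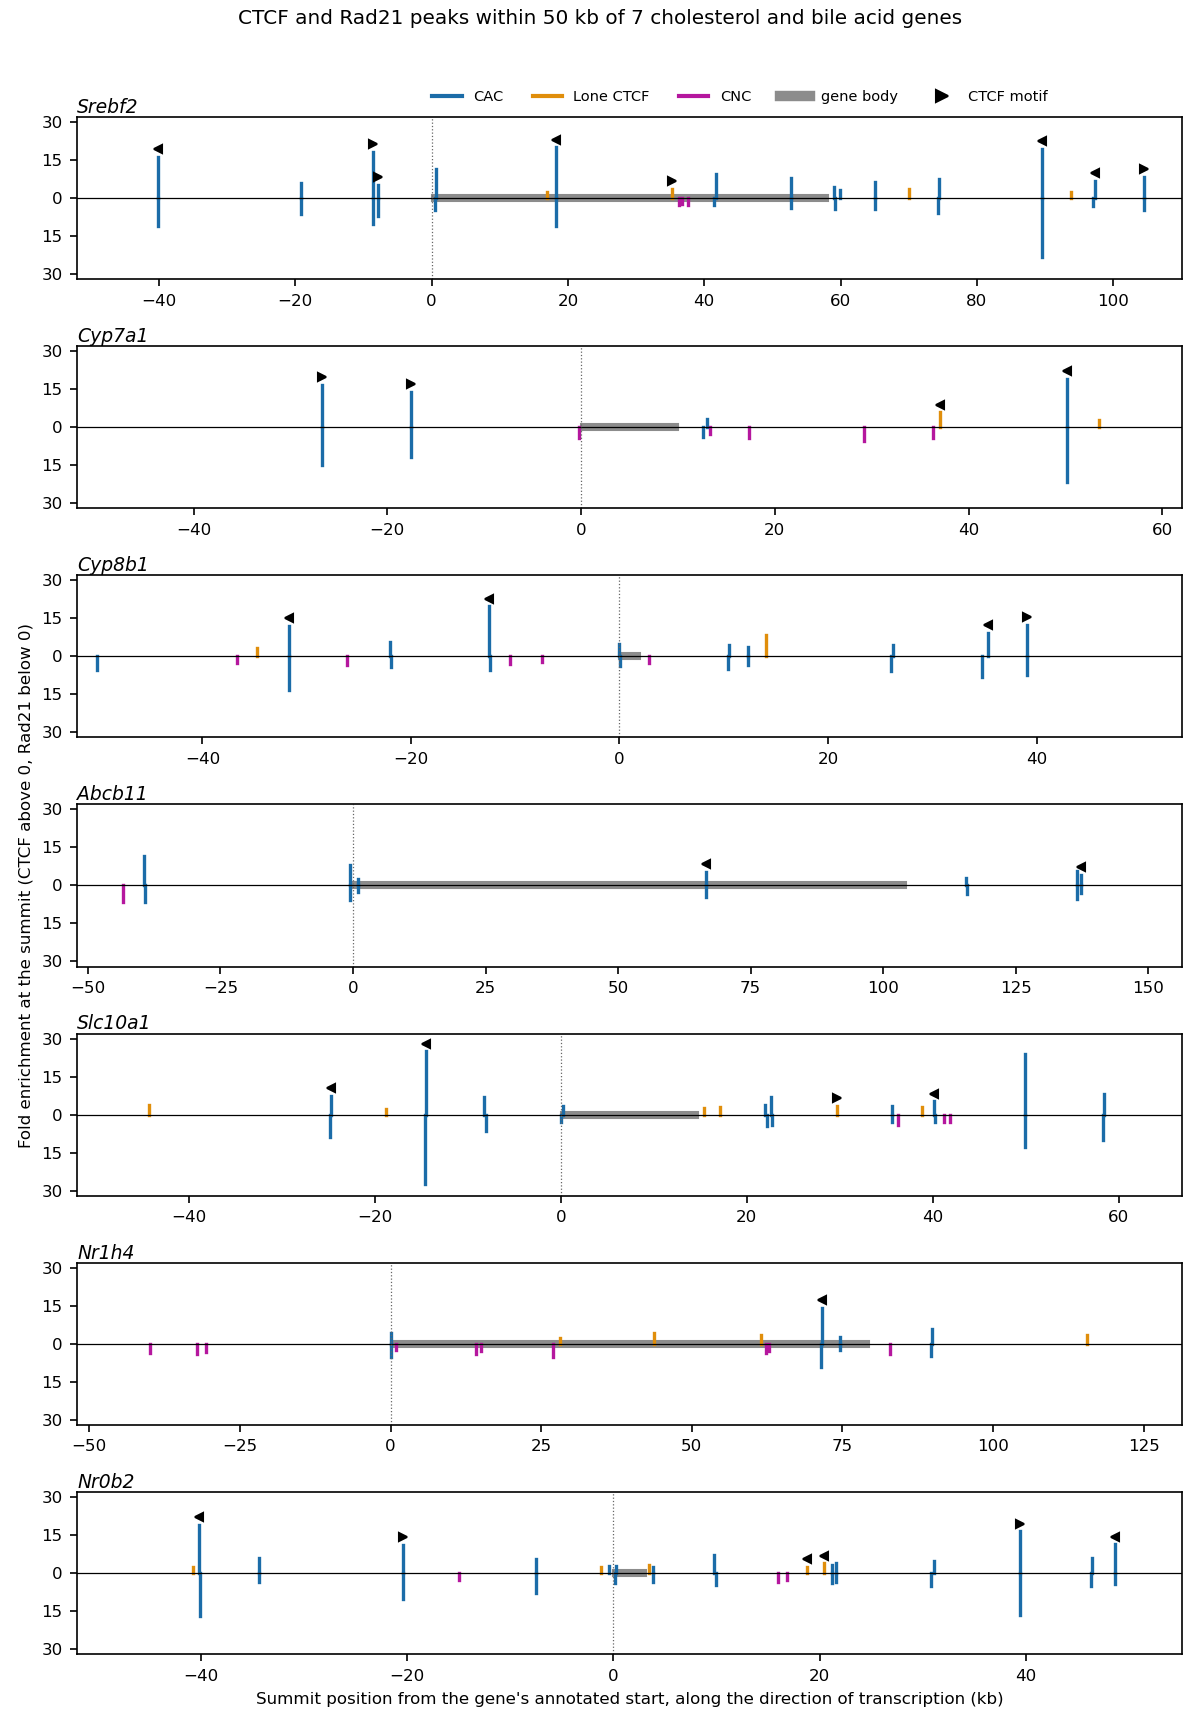
Positions of CTCF peaks (bars above 0) and Rad21 peaks (bars below 0) around the 7 genes, with distance from the annotated start along the direction of transcription in kb on the x axis and fold enrichment at the summit on the y axis; colours give the class, grey bars the gene body and triangles the direction of CTCF motifs along transcription. The bars of highest fold, such as the Slc10a1 peak 14.5 kb upstream at 24.97 for CTCF and 27.49 for Rad21, lie away from the starts.

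A CTCF peak that shared at least 1 bp with a Rad21 peak was classed as CAC (cohesin and CTCF), any other CTCF peak as Lone CTCF, and a Rad21 peak that met no CTCF peak as CNC (cohesin without CTCF). Of the 86 CTCF peaks, 63 were CAC, a share of 73.3% (95% Wilson interval 63.1 to 81.5), against 73.8% of all autosomal CTCF peaks. Of the 92 Rad21 peaks, 30 were CNC, a share of 32.6% (23.9 to 42.7), against 26.6% of all autosomal Rad21 peaks. Both intervals contain the share of the whole list. They cover counting error only. The strength of a peak is given as its fold enrichment, the ratio of signal at the summit to the local background, and its rank as the percentage of autosomal peaks of the same list with a lower fold.

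The 7 windows differed from each other in how densely they were bound. Per 100 kb of window, the median of the 7 genes was 10.8 CTCF peaks, 10.8 Rad21 peaks and 2.91 CNC peaks, whereas over all genes the medians were 5.26, 4.89 and 0.752. Nr0b2 had the densest CTCF binding, at 18.4 peaks per 100 kb, which exceeded the density of 99.8% of genes. Slc10a1, at 13.9, exceeded 96.5% of genes, Srebf2, at 12.02, exceeded 91.8%, and Cyp8b1, at 10.8, exceeded 87.2%. Cyp7a1, Nr1h4 and Abcb11 lay nearer the middle, at 5.45, 4.46 and 3.43 CTCF peaks per 100 kb, above 51.3%, 43.1% and 34.4% of genes. The order changed for cohesin without CTCF. Nr1h4, with 5.58 CNC peaks per 100 kb, exceeded 98.6% of genes, Cyp8b1, with 4.90, exceeded 97.6%, and Cyp7a1, with 4.55, exceeded 96.3%. Abcb11 had 0.489 and exceeded 45.1%. These orders hold for the unfiltered lists. Among peaks with −log10 q of at least 10 (q being the adjusted p of the peak caller), Cyp8b1 was densest for CTCF at 10.8 per 100 kb and Nr0b2 followed at 10.7. Among peaks of at least 5-fold enrichment, Srebf2 was densest for CTCF at 8.22 and Nr0b2 followed at 7.75. Of the 30 CNC peaks, classed on the unfiltered lists, 7 had −log10 q of at least 10, 3 at Nr1h4, 2 at Cyp7a1 and 1 each at Abcb11 and Slc10a1. Those of at least 5-fold were 3 peaks, 1 each at Nr1h4, Cyp7a1 and Abcb11, and Cyp8b1 had 0 under both limits. Window lengths ran from 102.0 kb for Cyp8b1 to 204.3 kb for Abcb11, because the window grows with the gene.

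**Figure D2:**
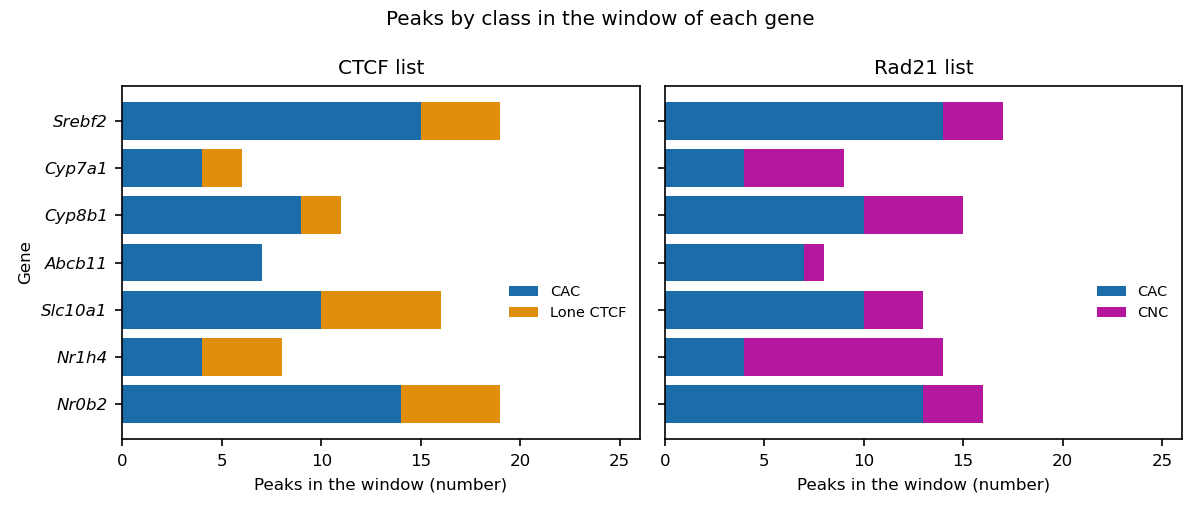
Number of peaks in the window of each gene, CTCF peaks in the left panel and Rad21 peaks in the right panel, with the bar divided by class. Nr1h4 has 10 CNC peaks among 14 Rad21 peaks, and Abcb11 has 1 among 8.

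Around Srebf2 (chr15:81977696-82035806, plus strand) there were 19 CTCF peaks, 15 of them CAC, and 17 Rad21 peaks, 14 of them CAC. At the start, a CTCF peak of 11.3-fold enrichment (chr15:81977746-81978615) had its summit 597 bp inside the gene in an intron, and it was stronger than 70.5% of autosomal CTCF peaks. The Rad21 peak over it had a fold of 4.80, above 48.3% of the Rad21 list. The strongest CTCF peak of the window lay deeper in the gene, in an intron 18.2 kb from the start, with 19.96-fold CTCF and 10.95-fold Rad21 enrichment and a motif on the minus strand. The strongest Rad21 peak, at 23.4-fold, lay 89.5 kb from the start in an intron of the downstream gene Cenpm, together with 19.3-fold CTCF. Within the gene body a Lone CTCF peak of 3.67-fold at 35.2 kb carried a motif of 22.6 bits, and all 3 CNC peaks of the window (2.44- to 2.75-fold) clustered 36.2 to 37.6 kb from the start. A further intronic CAC site had 9.46-fold CTCF with the summit 41.8 kb from the start but 2.86-fold Rad21 with the summit at 41.5 kb. The rank of this site in the CTCF list exceeded that in the Rad21 list by 57.2 percentage points, a gap above that of 99.6% of all 49467 CAC pairs. Its summits were more than 100 bp apart, so under the alternative of summits within 100 bp the peaks are not shared.

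Nr1h4 (chr10:88916979-88996330, minus strand) had 8 CTCF peaks, 4 CAC and 4 Lone CTCF, and 14 Rad21 peaks, of which only 4 met CTCF. The 10 CNC peaks were the most in any of the 7 windows, with 6 inside the gene, 3 upstream and 1 downstream. Of these 10, 3 had −log10 q of at least 10 and 1 had a fold of at least 5. Their enrichment was low to moderate, from 2.45- to 5.08-fold. The highest of them (chr10:88969140-88969649) covered the internal transcription start annotated at position 88969403, with its summit 60 bp past that start in a coding exon. Nr1h4 is known to use such an internal promoter for some of its isoforms. The nearest CTCF peak, a Lone CTCF peak of 2.49-fold, ended 1078 bp from this start and 815 bp from the Rad21 peak. The upstream gene start instead had both factors, at 4.37-fold for CTCF and 5.26-fold for Rad21 with summits 51 and 60 bp past the start, and a CNC peak of 2.45-fold 904 bp into the gene. The strongest CTCF and Rad21 peaks of the window, at 14.3- and 9.25-fold, formed a CAC site in an intron 71.5 kb from the start, with a motif on the plus strand. The 3 upstream CNC peaks, between 30.6 and 39.9 kb before the start, had folds of 3.10 to 4.12, and no CTCF peak had its summit in the window upstream of the gene.

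Nr0b2 (chr4:133109291-133112451, plus strand) is a short gene in a crowded window with 19 CTCF and 16 Rad21 peaks. Some of the CTCF summits lay 123, 128, 148 and 95 bp from the starts of Nudc, Gpatch3, Gpn2 and Sfn. The Nr0b2 start was bound weakly. A pair of CTCF peaks with folds of 2.70 and 2.87 had summits 393 bp before and 226 bp after the start, and both overlapped a single Rad21 peak of 4.07-fold (chr4:133108658-133109661). The upper of the CTCF folds exceeded only 6.1% of the CTCF list, while the Rad21 peak exceeded 36.5% of its list. Strong sites lay outside on both sides. A CAC peak 40.2 kb upstream had 19.1-fold CTCF and 16.9-fold Rad21 enrichment, and a CAC peak 39.4 kb downstream had 16.4- and 16.5-fold. The strongest CNC peak, at 3.42-fold, lay 15.99 kb from the start, between Nr0b2 and Gpatch3, and held the HNF1 letters GTTAATNAT near its summit.

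Of the synthesis enzymes, Cyp7a1 (chr4:6192759-6202780, minus strand) was, in the unfiltered lists, the gene of the 7 whose start had Rad21 and no CTCF. The Rad21 peak (chr4:6202618-6203209) spanned the start, with its summit 236 bp before it, a fold of 4.21 and a position above 39.2% of the Rad21 list. No CTCF peak lay within 2.5 kb of the start, and the best CTCF motif score near the summit was 1.8 bits. The window had 6 CTCF and 9 Rad21 peaks, and 5 of the Rad21 peaks were CNC, 4 of them downstream of the gene. The strongest CNC peak, at 5.41-fold, was 29.2 kb from the start in the sequence between Cyp7a1 and Ubxn2b. CTCF was strong at the edges of this stretch: 50.2 kb downstream of the start with 19.0-fold CTCF and 21.7-fold Rad21, 17.6 kb upstream with 13.9- and 11.7-fold, and 26.8 kb upstream with 16.6- and 14.9-fold. All 3 of these sites carried a motif.

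Cyp8b1 (chr9:121823474-121825423, minus strand), a gene with a single exon, had 11 CTCF and 15 Rad21 peaks in its window. Both factors were found at the start, with 4.67-fold CTCF enrichment 54 bp before it and 3.86-fold Rad21 enrichment 35 bp after it. The CTCF peak held the HNF4A letters near its summit. The strongest CTCF peak, at 19.8-fold, lay 12.5 kb upstream with the motif printed above, and it exceeded 90.5% of the CTCF list. The Rad21 peak over it was moderate, at 5.45-fold and above 56.2% of its list, and the difference of 34.4 percentage points was larger than in 95.6% of all CAC pairs. The strongest Rad21 peak, at 13.4-fold, stood 31.7 kb upstream over a CTCF peak of 11.99-fold. The 5 CNC peaks were all weak, from 2.39- to 3.42-fold, and 4 of them lay upstream. At the upstream edge of the window a Rad21 peak of 5.41-fold was just inside, and the CTCF peak it overlapped, at 4.26-fold, began 50026 bp from the gene and was not counted. A Lone CTCF peak in an intron of the neighbouring gene Ccbp2, 14.1 kb past the start, had the highest fold of the 23 Lone CTCF peaks, at 8.29, without a motif.

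Of the transporters, Abcb11 (chr2:69076339-69180671, minus strand) had the sparsest binding for its size, with 7 CTCF peaks, all CAC, and 8 Rad21 peaks over 204.3 kb. At its start a CAC site had 8.24-fold CTCF and 5.86-fold Rad21 enrichment with summits 498 and 511 bp before the start. A weaker CAC site of 2.63- and 2.54-fold followed 901 bp into the gene. The body of this long gene held besides these only 1 CAC site, in an intron 66.5 kb from the start, with 5.50-fold CTCF, 4.48-fold Rad21 and a motif on the plus strand. An internal start annotated at position 69077135 had neither factor within 1 kb. The strongest CTCF peak, at 11.8-fold, was 39.3 kb upstream in an intron of Dhrs9, a short-chain dehydrogenase gene. In the same gene, 43.5 kb before the Abcb11 start, was the 1 CNC peak of the window, which at 6.63-fold was also its strongest Rad21 peak and the highest of the 30 CNC peaks in the 7 windows.

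Slc10a1 (chr12:82054172-82068971, minus strand) had 16 CTCF peaks, 10 CAC and 6 Lone CTCF, and 13 Rad21 peaks. Binding at the start was among the weakest, with 3.55-fold CTCF 208 bp inside the gene in a coding exon and 2.85-fold Rad21 24 bp before the start. The site 14.5 kb upstream (chr12:82083294-82083739) was by contrast the strongest of all 7 windows in both lists. Its CTCF fold of 24.97 exceeded 98.2% of the CTCF list, its Rad21 fold of 27.5 exceeded 99.8% of the Rad21 list, and its motif scored 22.6 bits on the plus strand. A second strong CAC site 49.95 kb downstream of the start had 23.9-fold CTCF and 12.8-fold Rad21, although its best motif score of 12.2 bits was under the threshold. The 3 CNC peaks, at 2.84- to 3.99-fold, lay 36.3 to 41.9 kb downstream, beyond the neighbouring gene Srsf5.

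Within 1 kb of the annotated start, 6 of the 7 genes had a CTCF peak, against 50.9% of all 21418 genes, and 7 of 7 had a Rad21 peak, against 50.5%. Both factors were there in 6 genes, against 47.2%, and Rad21 alone in 1 gene, Cyp7a1, against 3.23%. With −log10 q of at least 10, 5 of the 7 genes had CTCF at the start, against 43.9% of all genes, and 6 had Rad21, against 40.3%. With peaks of at least 5-fold enrichment only, 2 of the 7 genes had CTCF at the start, against 33.4% of all genes, and 2 had Rad21, against 28%. The start with Rad21 alone also depended on the limit, since at −log10 q of at least 10 both Cyp7a1 and Nr0b2 were such starts, against 3.95% of all genes, and at 5-fold Nr1h4 was in place of Cyp7a1, against 4.63%. The Nr0b2 and Nr1h4 starts had CTCF peaks in the full list that fell under these limits. The strongest CTCF peak at the start exceeded the median of all bound starts, 6.26-fold, at Srebf2 and Abcb11 and was under it at Cyp8b1, Nr1h4, Slc10a1 and Nr0b2. The strongest Rad21 peak exceeded the median of 5.28-fold at Abcb11 only, and at Slc10a1 it was above just 3.38% of bound starts. None of the 8 CTCF peaks and 9 Rad21 peaks at the 7 gene starts carried a CTCF motif, against 15.5% of CTCF peaks and 12.2% of Rad21 peaks at protein-coding starts of the same chromosomes, and by the limit of 3 counts shares of up to 37.5% and 33.3% were allowed. The highest score among them was 8.85 bits, at Srebf2.

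**Figure D3:**
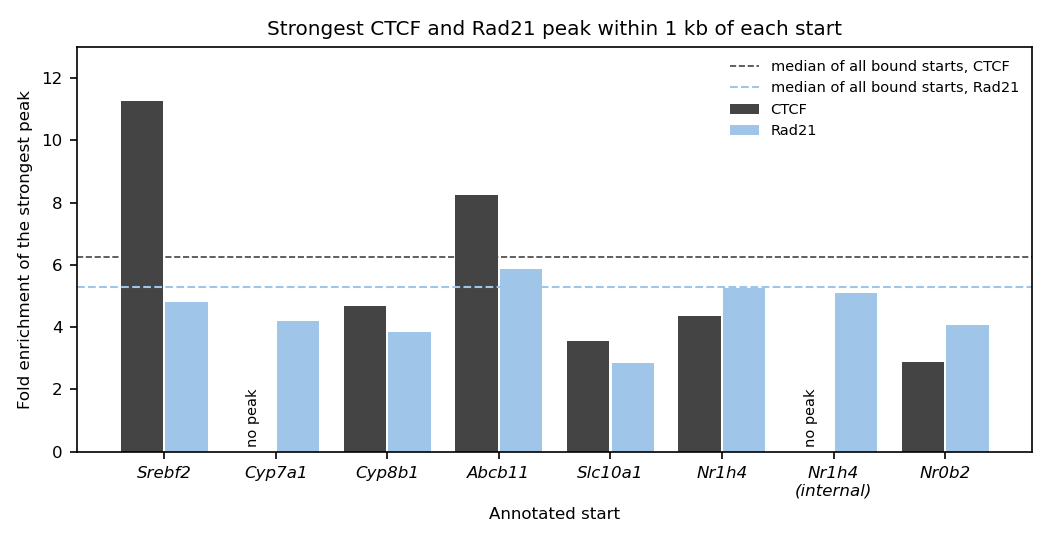
Fold enrichment of the strongest CTCF peak (dark bars) and Rad21 peak (light bars) within 1 kb of each annotated start, with the internal start of Nr1h4 beside its gene start and dashed lines at the medians of all bound starts (6.26 for CTCF, 5.28 for Rad21). CTCF is missing at Cyp7a1 and at the internal Nr1h4 start, and each bar is 1 pooled value without an error.

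Peaks in the 7 windows were weaker than their class as a whole more often than not. The median fold of the 63 CAC CTCF peaks was 6.25, ranging from 2.49 to 24.97, and that of all autosomal CAC CTCF peaks was 8.41, with 41 of the 63 below it. For the 23 Lone CTCF peaks the median was 3.05 against 3.85, with 19 below. For the 62 CAC Rad21 peaks it was 5.21 against 6.14, with 38 below, and for the 30 CNC peaks 3.12 against 3.48, with 18 below. In the windows as in the lists, peaks bound by both factors had higher median folds than peaks of either factor alone. No test was made on these medians, since neighbouring peaks and pooled libraries are not replicates.

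**Figure D4:**
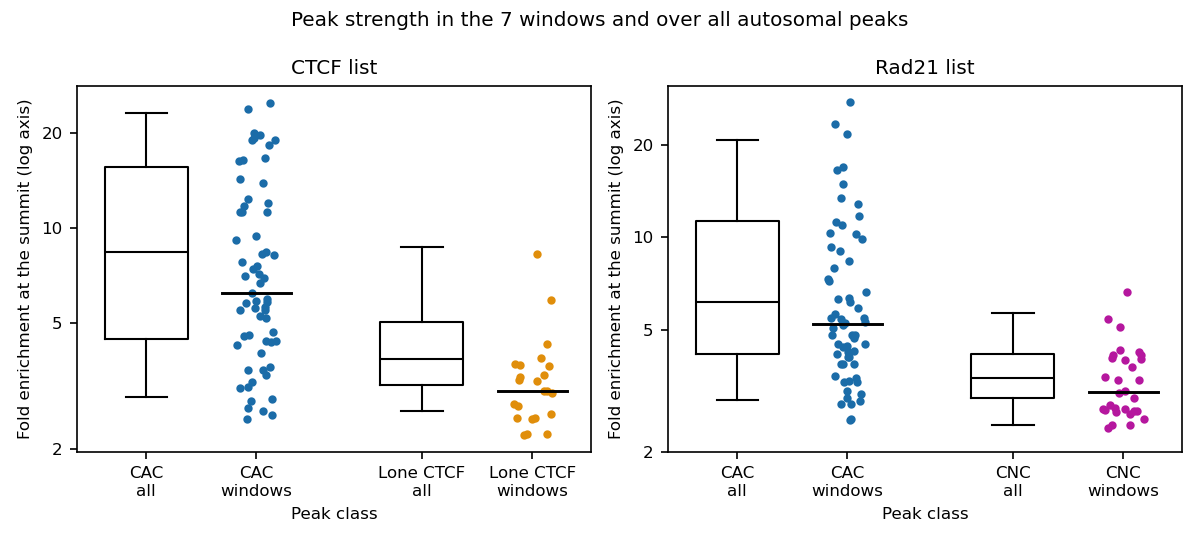
Fold enrichment at the summit on a log axis, by class, for the CTCF list (left panel) and the Rad21 list (right panel). Boxes give the median and quartiles of all autosomal peaks with whiskers at the 5th and 95th percentiles, points are the peaks of the 7 windows, and the bar through the points is their median, which is lower than the box median in all 4 classes.

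Of the 63 CAC CTCF peaks, 24 carried a motif (38.1%, 95% Wilson interval 27.1 to 50.4), against 45.7% of CAC CTCF peaks on the chromosomes of these genes. Of the 23 Lone CTCF peaks, 5 did (21.7%, 9.66 to 41.9), against 38.6%. The intervals of both classes overlap, and no test of the difference was made. None of the 30 CNC peaks did (Wilson interval 0.0 to 11.4, and up to 10% by the limit of 3 counts), against 2.69% of CNC peaks on those chromosomes. The highest CNC score, 14.0 bits, was in the Srebf2 intron, just under the threshold of 14.2 bits.

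The 30 CNC peaks were not all far from CTCF. The distance from a CNC peak to the nearest CTCF peak had a median of 2.25 kb, against 4.9 kb over all autosomal CNC peaks. In the windows it ran from 46 bp to 39.5 kb. Of the 30 peaks, 9 lay within 1 kb of a CTCF peak, against 23.3% of all autosomal CNC peaks. The shortest distance was downstream of Cyp7a1, where a CNC peak of 2.65-fold ended 46 bp from a CTCF peak of 3.14-fold. Another Cyp7a1 CNC peak, 36.4 kb from the start and 4.13-fold, was 104 bp from a Lone CTCF peak of 5.91-fold that carried a motif. Just inside the rule, the CAC pair with the least overlap was in a coding exon of G6pc2 in the Abcb11 window, where the peaks shared 20 bp. Class calls at such neighbours depend on where the peak edges were drawn.

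For each gene the nearest CAC peak with a motif was taken on either side. This peak could lie beyond the 50 kb window, as it did on both sides of Nr1h4 and upstream of Abcb11. The pair was convergent, with the left motif on the plus strand and the right motif on the minus strand, for 3 of the 7 genes, against 28.1% of 6981 genes on the same chromosomes. The 3 genes were Srebf2, Cyp7a1 and Abcb11. The other 4 pairs were tandem, against 45.4% of genes, and 0 were divergent, against 26.5%. When a site counted as shared only with summits within 100 bp, the Cyp8b1 pair was divergent. The spans between the motifs had a median of 67.7 kb, and over all genes the median was 135.0 kb with quartiles at 67.1 and 326.0 kb.

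The Cyp7a1 pair spanned 67.7 kb and held the start of no protein-coding gene but Cyp7a1. All 5 CNC peaks of the gene, 6 Rad21 peaks in all and 2 CTCF peaks lay inside it. Both of its edges were strong, with 19.0- and 13.9-fold CTCF enrichment. The Srebf2 pair spanned 97.4 kb with a weaker left edge of 5.26-fold CTCF and 7.17-fold Rad21 in an intron of Ccdc134 and a right edge of 19.3- and 23.4-fold in Cenpm. The next CAC site outward on the left, 8.56 kb upstream of the start in the same intron, was stronger. This site had 18.3-fold CTCF, 10.2-fold Rad21 and a motif also on the plus strand. The pair held the starts of Srebf2 and Tnfrsf13c. The Abcb11 pair spanned 223.0 kb with 4 gene starts inside. Its left edge in an intron of Spc25 was weak, with 4.28-fold CTCF and 2.998-fold Rad21, and when only peaks with −log10 q of at least 10 were kept, the pair became tandem and 2 genes were convergent. The tandem pair around Nr1h4 spanned 247.0 kb and enclosed 13 CNC peaks among 17 Rad21 peaks, some of them outside the window of the gene. The tandem pairs of Cyp8b1, Slc10a1 and Nr0b2 were short, at 47.9, 54.8 and 59.8 kb. Whether any of these pairs forms a loop was not tested, since peak lists hold no contacts.

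Letters known to be bound by liver factors were searched on both strands within 100 bp of each summit. TGTTTAC (FOXA) was in 4 of the 30 CNC peaks, 2 in the Cyp7a1 window, 1 in Nr1h4 and 1 in the Nr0b2 window, against 4.74% of 17225 CNC peaks searched. It was also in 1 CAC CTCF peak, 8.31 kb upstream of Slc10a1, against 2.48%, and in 1 Lone CTCF peak 18.8 kb past the Nr0b2 start, against 2.55%. CAAAGTCCA (HNF4A) was in 1 of 63 CAC CTCF peaks, that at the Cyp8b1 start, against 0.447%. CAAGGTCA (NR5A2, a receptor known to drive bile acid synthesis genes) was in a CNC peak 2.83 kb past the Cyp8b1 start, against 2.44%, and in a Lone CTCF peak 1.19 kb before the Nr0b2 start, against 0.999%. CACCCCAC (sterol response element) was in the Lone CTCF peak in Ccbp2, against 1.23%. GTCANTGAC, an inverted repeat bound by the bile acid receptor, and TTGCGCAA (C/EBP) were in no peak of any class in the windows, which says only that the letters were not in these stretches. GTTAATNAT (HNF1) was in 1 CNC peak, in the Nr0b2 window, against 1.11%, and in 1 of the 62 CAC Rad21 peaks, in the Abcb11 window (chr2:69043230-69043424), against 0.461%. In the other CAC Rad21 peaks of the windows, none of the 7 short motifs lay within 100 bp of the summit.

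In the wider pathway, 49 further genes of cholesterol and bile acid metabolism were listed and 46 had an entry on an autosome. Of these, 35 (76.1%) had CTCF within 1 kb of the start, 40 (87.0%) had Rad21, and 34 had both, beside 50.9%, 50.5% and 47.2% of all genes. These shares are from the unfiltered lists, include weak peaks and were not recomputed for the wider pathway under the stricter limits. By role, both factors were at 15 of 18 genes of cholesterol synthesis and uptake, 8 of 11 of bile acid synthesis and conjugation, 4 of 8 transporters and 7 of 9 regulators. Among genes with both, the highest CTCF folds at starts were 22.8 at Scap, the escort protein of SREBP, 21.4 at Abcb4, the phospholipid pump of bile, and 20.7 at Cyp46a1, a cholesterol hydroxylase best known from brain. All 3 were higher than at any of the 7 genes, where the maximum was 11.3 at Srebf2. Like Cyp7a1, 6 of the 46 had Rad21 and no CTCF at the start, against 3.23% of all genes, 3 of them among the 8 transporters. They were Abcc2, Slco1a1, Slco1b2, Akr1d1, Fdft1 and Klb, named after their values were seen, with Rad21 folds from 3.02 to 4.10. All 6 were under the 5-fold limit applied to the 7 genes above.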

How the data were processed

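ChIP-seq of CTCF (4 libraries) and Rad21 (3 libraries) from female mouse liver was used as 2 deposited peak lists. Alignment by the authors was to mm9 (Bowtie2, unique hits only). MACS2 then called peaks on each antibody's pool, from which blacklisted regions and peaks consisting of duplicate reads alone were taken out. For every peak the authors give a fold enrichment at the summit (a ratio to the local background), −log10 p and −log10 q, a score made from q, and the summit offset. The deposited fold, −log10 q and summit were used, and the score and −log10 p were not. No column holds a single library, so 0 per-library columns were left unused. The depth is not in the lists.

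The 7 genes and the lists of pathway genes and motifs were chosen with earlier results of these data known. Gene spans, starts and transcripts came from GENCODE M1 (mm9). Named were all peaks within 1 kb of a start, the strongest CTCF, Rad21 and CNC peak of each window, the nearest CAC peaks with a motif, and peaks in gene bodies. Peaks used to show distances or ranks were picked after their values were seen.

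The CTCF matrix was learned from 1000 peaks, within 50 bp of their summits, and scored within 100 bp of summits, with 41552 windows 1000 bp away as background. No sequence from chromosome 18 was read. Steps were tested on simulated data: 475 of 480 planted motifs were found and 0 of 120 sequences without one were called. The planted motif had a dominant base at every position, unlike the CTCF matrix, and lay in random sequence. These counts therefore check the code and not the accuracy of the CTCF motif calls. Python 3.11.15, numpy 2.4.6, pandas 2.3.3, scipy 1.17.1, pysam 0.24.0, samtools 1.23.1 and matplotlib 3.10.9 were used. Alternatives were stricter peaks, other overlap rules, window sizes, distances from the start and motif settings. Some pathway genes and sequences are not reported here.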

Additional observations from a re-analysis of the deposited data

How the results depend on the processing

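No paired analysis was possible because the replicates of each antibody were pooled into 1 list before peaks were called, and for the same reason no library could be left out. Of 45 recomputed summary values, 28 stayed within the margin and 17 moved. Of 42 counts of peaks per gene under both stricter peak sets, 31 moved, 0 of them upward. With −log10 q of at least 10 there were 56 Rad21 peaks in the 7 windows and the CNC share was 21.4%. With a fold of at least 5 there were 44 CTCF and 36 Rad21 peaks, the CNC share was 22.2%, 2 genes had CTCF and 2 had Rad21 at the start, and 64.3% of CAC CTCF peaks carried a motif. Both CNC shares were classed on the filtered lists and count 5 Rad21 peaks each that met a CTCF peak in the full lists. With classes from the full lists, an alternative chosen after seeing the data, they were 12.5% and 8.33%. Calling a site shared only when summits were within 100 bp gave 53.5% CAC and 48.9% CNC. Windows of 25 kb held 61 Rad21 peaks, and 23.8% of their CAC CTCF peaks carried a motif, and windows of 100 kb held 130 CTCF and 139 Rad21 peaks, which follows from their size. A motif threshold reached by 5% of flanking windows gave a motif share of 57.1%. The CNC, CAC and motif shares of the wider lists were not recomputed under these settings. No shift can therefore be read as particular to the 7 genes. The number of convergent genes ranged from 2 to 4: Abcb11 became tandem under both stricter peak sets, Cyp8b1 divergent with summits within 100 bp, Slc10a1 convergent at the looser motif threshold, and Nr0b2 convergent and Slc10a1 divergent when every CTCF peak with a motif was used, a setting chosen after seeing the data. Srebf2 and Cyp7a1 were convergent under every alternative run. The causes were not tested. A region without a peak may be bound below the threshold of the pooled call.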
